A study of Mus musculus with 36 samples.

Results

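The genes described here are the 113 members of the cyclin, cyclin-dependent kinase (CDK), Cdc and mitotic gene families measured on a mouse cDNA array. They were taken by gene symbol from the array's annotation: cyclins A to L, symbols that begin with Cdk, Cdkn, Cdc, Mcm or Kif, single-letter Cenp genes, Bub1 and Bub3 genes, Aurora kinases and Polo-like kinases, apart from 2 symbols not analysed here. The rule uses symbols and no measured value, but the families were picked with earlier results of these data known. The array annotation names 9930 genes in all, and the 113 members were read by 163 of its 14030 probes with 1 gene symbol. By family there were 11 cyclins, 22 CDKs and CDK partners, 6 CDK inhibitors and relatives, 21 Cdc genes, 7 Mcm genes, 22 centromere, checkpoint and mitotic kinase genes, and 24 kinesins.

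Cyclins switch on CDKs, and successive cyclin-CDK pairs take a cell through growth, DNA replication and mitosis. The Mcm2 to Mcm7 proteins form the helicase that unwinds DNA at replication origins, Cdc6 loads it, and Cdc25 phosphatases release CDKs from inhibition. Aurora and Polo-like kinases, centromere proteins and the mitotic kinesins then separate the chromosomes. Erbb2 is a receptor tyrosine kinase whose signals drive fibroblasts into the cell cycle, largely through D-type cyclins. The symbol rule also takes in genes with other work, such as transport kinesins, transcriptional CDKs and the effectors of the small GTPase Cdc42. A split by textbook role therefore separated 50 proliferation members, which act in S phase entry, replication or mitosis, from 63 other members. The other members also hold the CDK inhibitors, so the split does not set cell cycle genes against genes outside the cycle.

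All cells were NIH3T3, an immortal mouse fibroblast line, transfected with Erbb2 under tet-off control, in which tetracycline shuts the transgene down. Cells had been given tetracycline for 1, 2, 4, 12 or 24 h or for 3, 5 or 7 days, or were untreated. There were 4 arrays per group. Replicates 1 and 2 carried the group's RNA in the dye Cy5 and replicates 3 and 4 in Cy3. The other channel of every array held RNA of untreated Erbb2 cells. The labels do not say how many clones or cultures the RNA came from, and their protocols, which mention organs and a pool from 6 control animals, conflict with the named sources.

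Each value below is a log2 ratio of a group's RNA to untreated RNA on 1 array, so it shows a difference between 2 samples and not a level. On the untreated arrays both channels held untreated RNA, so their values hold no treatment contrast. The direction is an assumption: the deposited ratios were read as Cy5 over Cy3, and the Cy3 arrays were multiplied by -1. On the Cy5 arrays a ratio of Cy5 over Cy3 and a ratio of treated over untreated are the same number, so that step does not touch them. If the files held Cy3 over Cy5, every sign below would turn. If they held untreated over treated, only the Cy5 arrays would have the wrong sign, and if treated over untreated, only the Cy3 arrays.

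Some arrays stood apart. A constant shift of 0.771 (SD 0.00051 over 19840 values) separated untreated replicates 1 and 2, so they were counted once, which left 35 arrays and 3 untreated ones. The untreated group is thus unbalanced in dye, with replicate 1 in Cy5 and replicates 3 and 4 in Cy3. An effect of treatment alone would give arrays of opposite dye a negative correlation before turning. It was negative at 2 h (Spearman rho -0.227 to -0.189) and weakly at 1 h, 24 h and 5 days (-0.098 to -0.021), lay around 0 at 4 h, 12 h and 7 days (-0.055 to 0.066), and were positive at 3 days (0.197 to 0.269) and on the untreated arrays (0.378 to 0.467). The dye pairs of 3 days thus disagree once turned, and at most other times they agree little. The untreated arrays carry untreated RNA in both channels, so the expectation for a treatment effect does not cover them. The interquartile range of the log2 ratios was 0.697 to 1.419 on the 3, 5 and 7 day arrays, against 0.357 to 0.504 on those of 1 to 24 h. In the 5 and 7 day arrays the values had slid by 1 to 4 probe rows and were moved back, which left Plk1 and Aurkb with no value there. Among 12 tested fibroblast markers, 7 were higher and 3 lower at 3 to 7 days than at 1 to 4 h, by limma with the adjusted p below 0.05. Col1a1, a collagen chain, was higher by 1.69 and Vim, the filament protein vimentin, was lower at -1.05, while 1 of 18 markers of other cell types was called (Cdh5, an endothelial cadherin, at -1.07).

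The first comparison of the members set the late times (3, 5 and 7 days) against the early times (1, 2 and 4 h). The mean of the untreated arrays is not part of it, though those arrays enter the estimates of the spread and of the dye term. Both sides hold 12 arrays with balanced dyes. Of 98 members tested, 7 were lower at late than at early times and none was higher at an adjusted p below 0.05 (limma with Benjamini-Hochberg adjustment over 8304 genes), and 16 had an unadjusted p below 0.05, against 16.5% of all genes. Among all genes tested 6.71% were called, 2.46% higher and 4.25% lower. The members' 7.14% is near that share, so the families as a whole did not stand out. These are bulk RNA samples, in which fewer cycling cells and less RNA per cell cannot be told apart.

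The 7 were Cdk1, Cdk4, Mcm3, Mcm4, Mcm7, Plk2 and Ccng1. By role, 5 of 44 tested proliferation members were lower (11.4%, median difference -0.17), against 2 of 54 other members (3.7%, median 0.045) and a median of -0.001 over all genes. Of the 44 proliferation members 30 lay below 0 and 14 above. Of the Mcm genes 3 of 7 were lower, with a median of -0.576, and 2 of 16 CDKs and partners. The cyclins gave 1 of 11 and the centromere, checkpoint and mitotic kinase genes 1 of 18. None of 20 Cdc genes, 21 kinesins or 5 CDK inhibitors passed.

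**Figure D1:**
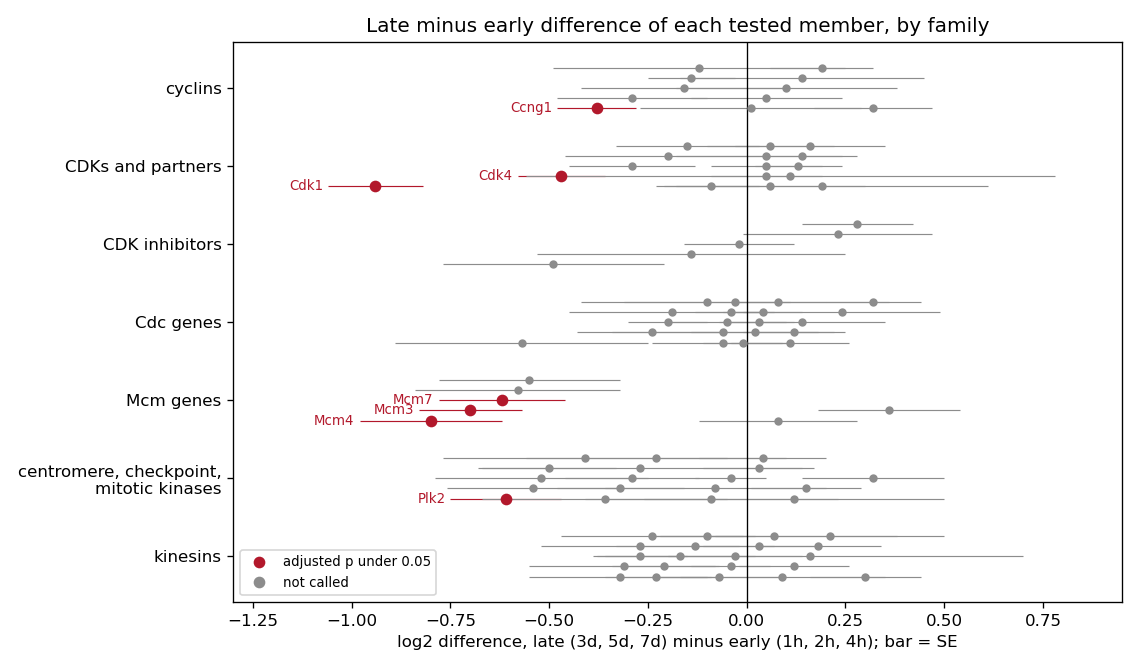
Difference in log2 ratio between late (3, 5 and 7 days) and early (1, 2 and 4 h) times for each of the 98 tested members, by family, with bars of 1 SE. Red points are the 7 members with an adjusted p below 0.05, all left of 0, from -0.94 (Cdk1) to -0.38 (Ccng1).

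Cdk1, the kinase that drives entry into mitosis, differed most. Its log2 ratios at late times ran from -0.80 through a median of -0.41 to 0.76, and at early times from 0.22 through 0.62 to 0.82. The ranges overlap only through the 3 day array of replicate 4, at 0.76. The difference was -0.94 (SE 0.12, n = 12 arrays each, limma adjusted p 9.13e-07). It was -1.19 on the Cy5 arrays alone and -0.69 on the Cy3 arrays alone, with limma adjusted p values of 7.16e-05 and 0.0189. These single-dye fits were chosen later. Mcm3, Mcm4, Mcm7, Cdk4, Plk2 and Ccng1 were called on the Cy5 arrays alone but not on the Cy3 arrays alone.

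The single arrays show when Cdk1 changed. Its log2 ratios were 0.62, 0.69, 0.50 and 0.22 at 1 h, 0.52, 0.78, 0.34 and 0.67 at 2 h, 0.82, 0.63, 0.48 and 0.81 at 4 h, and 0.83, 0.93, 0.65 and 0.61 at 12 h. All 16 arrays to 12 h were thus above 0. At 24 h it stood at 0.04, 0.02, 0.17 and 0.15, below every array of 12 h, a step that was not tested. At 3 days the Cy5 arrays gave -0.46 and -0.65 and the Cy3 arrays 0.11 and 0.76, so the dyes disagree. At 5 days it was -0.70, -0.70, -0.36 and -0.80 and at 7 days -0.33, -0.28, -0.32 and -0.50, against -0.14, -0.02 and 0.27 on the 3 untreated arrays. All 8 arrays of 5 and 7 days lay below all 16 arrays of 1 to 12 h. This grouping leaves out 24 h and 3 days and was not planned, and its share over all genes was not counted. Between all late and all early arrays, no member with a value on each was free of overlap. Of 6987 such genes 0.429% were lower and 0.315% higher without overlap. Against the untreated arrays alone, which number 3, the 12 h difference of 0.73 (SE 0.22) had a limma adjusted p of 0.471 and the 5 day difference of -0.67 (SE 0.22) one of 0.138.

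The Cdk1 promoter is shown because it carries the letters of 3 elements known from cell cycle genes. These are the CHR element of genes expressed late in the cell cycle (searched as TTTGAA and TTCGAA), the E2F site of replication genes (TTTGGCGC, TTTCCCGC, TTTCGCGC and TTTGCCGC), and the CCAAT box bound by NF-Y. CACGTG, the E box bound by Myc and related factors, was searched beside them. Each was searched on both strands in RefSeq promoters of build GRCm38.p6, which run from 250 bases before to 50 bases after a gene's start, and matches stand in capitals. Cdk1 (chr10:69352863-69353162, minus strand, read 5′ to 3′) has 2 CHR, 1 E2F and 3 CCAAT matches with no overlap.
Cdk1: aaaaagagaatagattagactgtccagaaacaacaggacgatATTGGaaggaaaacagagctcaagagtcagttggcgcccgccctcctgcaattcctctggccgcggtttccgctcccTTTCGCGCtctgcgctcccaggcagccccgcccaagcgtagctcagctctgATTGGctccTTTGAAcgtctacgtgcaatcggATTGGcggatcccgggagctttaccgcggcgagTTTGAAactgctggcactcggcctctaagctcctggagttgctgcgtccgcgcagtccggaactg

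The Mcm helicase genes were the family with the highest share of lower members. Mcm3 ran from -1.35 through a median of -0.27 to 0.44 at late times and from 0.10 through 0.45 to 0.58 at early times. Only the 3 day array of replicate 1, at 0.44, reaches into the early range. Its difference was -0.70 (SE 0.13, limma adjusted p 0.00049). Mcm7 ran from -1.61 through -0.15 to 0.59 at late times and from -0.10 through 0.39 to 0.84 at early times, with a difference of -0.62 (SE 0.16, limma adjusted p 0.0171). Its lowest value is 1 array of 5 days, while the other 3 of that time lay between -0.05 and 0.06.

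Mcm4 had the largest difference of the family. Its log2 ratios were -1.54, -0.70, -0.17 and 0.54 at 3 days, -0.86, 0.04, -0.27 and 0.26 at 5 days, and 0.68, -0.05, 1.09 and 0.35 at 7 days. At early times they ran from 0.28 through a median of 0.68 to 1.51. The 7 day arrays overlap the early range, and the low values lie at 3 and 5 days. The difference was -0.80 (SE 0.18, limma adjusted p 0.00455). Without the 3 day arrays it was -0.60, with a limma adjusted p of 0.0864.

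The other helicase subunits measured were Mcm2 and Mcm6. Mcm2 averaged 0.05 ± 1.00 at late times and 0.63 ± 0.37 at early times (SD, n = 12 each), a difference of -0.58 (SE 0.26) with a limma adjusted p of 0.25. Mcm6 averaged -0.23 ± 0.89 at late times and 0.32 ± 0.15 at early times (SD, n = 12 each), a difference of -0.55 (SE 0.23) with a limma adjusted p of 0.193. The 3 day values of Mcm6 split by dye, with -0.55 and 0.11 on the Cy5 arrays and 1.59 and 1.18 on the Cy3 arrays. With 5 and 7 days alone as the late times, a set chosen later, 6.33% of all genes were called. Mcm6 was then lower by limma, at -0.95 (SE 0.26, adjusted p 0.0199). Mcm10, which helps to start the helicase, differed by 0.08 (SE 0.20), and Mcm3ap, an mRNA export factor named for binding Mcm3, by 0.36 (SE 0.18). Neither passed.

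The promoters of Mcm3 and Mcm7 are shown for their E2F letters, which include a match just after the gene start in both. Mcm3 (chr1:20820263-20820562, minus strand) has 2 E2F and 3 CCAAT matches with no overlap. Mcm7 has 2 listed starts, and the one at chr5:138171834-138172133 (minus strand) has 1 CHR, 2 E2F and 3 CCAAT matches, of which 1 E2F and 1 CCAAT match overlap. The other start, at chr5:138171217-138171516, has 1 CCAAT match and none to the CHR or E2F letters. Both are RefSeq promoters of GRCm38.p6, read 5′ to 3′ with matches in capitals, where CCAAT on the opposite strand reads ATTGG.
Mcm3: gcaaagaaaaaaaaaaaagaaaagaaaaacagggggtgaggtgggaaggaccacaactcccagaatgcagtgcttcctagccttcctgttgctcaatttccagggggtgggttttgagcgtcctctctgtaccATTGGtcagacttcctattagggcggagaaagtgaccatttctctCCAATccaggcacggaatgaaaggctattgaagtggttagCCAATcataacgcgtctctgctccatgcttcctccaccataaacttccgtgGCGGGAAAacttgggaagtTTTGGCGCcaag
Mcm7: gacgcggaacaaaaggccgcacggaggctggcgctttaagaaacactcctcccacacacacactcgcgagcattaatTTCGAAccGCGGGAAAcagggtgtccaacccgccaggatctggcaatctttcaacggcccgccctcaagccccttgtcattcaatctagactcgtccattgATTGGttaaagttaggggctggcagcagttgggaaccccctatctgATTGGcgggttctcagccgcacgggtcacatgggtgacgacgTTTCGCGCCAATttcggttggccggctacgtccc

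Cdk4, the partner of the D cyclins that carries growth signals into the cycle, was lower at late times too. It ran from -0.54 through a median of -0.04 to 0.75 at late times and from 0.11 through 0.34 to 0.72 at early times. The 2 Cy3 arrays of 3 days, at 0.47 and 0.75, are the late ones inside or above the early range. The difference was -0.47 (SE 0.11, limma adjusted p 0.00815). At 12 h its 4 arrays gave 0.36, 0.46, 0.55 and 0.69, against 0.18, -0.35 and -0.20 on the untreated arrays. The groups do not overlap, but the difference of 0.63 (SE 0.21) had a limma adjusted p of 0.682.

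Cdk4 is known as a target of Myc, and its promoter is shown because it holds the E box letters more than once. The window at chr10:127063285-127063584 (plus strand, RefSeq GRCm38.p6, 5′ to 3′) has 4 E boxes and no match to the other motifs. The E boxes stand in capitals.
Cdk4: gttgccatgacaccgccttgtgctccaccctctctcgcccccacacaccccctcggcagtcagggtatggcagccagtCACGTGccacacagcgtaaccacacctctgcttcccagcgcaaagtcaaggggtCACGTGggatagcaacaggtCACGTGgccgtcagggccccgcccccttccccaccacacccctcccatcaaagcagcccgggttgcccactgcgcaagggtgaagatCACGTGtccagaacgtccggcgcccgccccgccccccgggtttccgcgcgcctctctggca

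Plk2, a Polo-like kinase induced early after growth stimulation, had a course of its own. Its log2 ratios were 0.51, 0.48, 0.67 and 0.32 at 1 h and 0.69, 0.92, 0.65 and 0.72 at 2 h. At 4 h they were -0.38, -0.75, -0.09 and -0.96, at 12 h -0.68, -1.24, -0.87 and -0.47, and at 24 h -0.85, -0.62, -0.92 and -0.78. At 3 days they were -1.38, -0.53, 0.20 and -0.71, at 5 days -0.58, -0.71, -0.06 and -0.07, and at 7 days -0.34, -0.61, 0.40 and -0.16, against 0.09, 0.17 and 0.37 on the untreated arrays. Every array of 1 and 2 h was above 0 and every array of 4 to 24 h below it, in both dyes. A moderated F-test over the differences of the 8 times from the untreated arrays, which thus take part in it, found Plk2 to vary (F 11.41, limma adjusted p 5.76e-05). The difference between late and early times was -0.61 (SE 0.14, limma adjusted p 0.00352). With the early times widened to 24 h it was -0.20 and did not pass, since the low values at 12 and 24 h then enter on the early side.

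Ccng1, cyclin G1, a target of the tumour suppressor p53 and no driver of the cycle, was the only cyclin called. It ran from -0.85 through a median of -0.48 to 0.09 at late times and from -0.36 through -0.06 to 0.49 at early times, so the ranges overlap. The difference was -0.38 (SE 0.10, limma adjusted p 0.0182). It is the mean of 3 probes that do not move alike, with differences of -0.07, -0.27 and -0.79 over all late and early arrays. Without the 3 day arrays it was -0.33, with a limma adjusted p of 0.0815. The classical cyclins among the members did not pass. Ccnd1 and Ccnb1 are not among the members, so they were not read here. Ccne1, which leads into S phase, differed by -0.14 (SE 0.11), Ccnb2, a partner of Cdk1 in mitosis, by -0.29 (SE 0.19), Ccnd2 by 0.01 (SE 0.28) and Ccnd3 by 0.14 (SE 0.31).

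**Figure D2:**
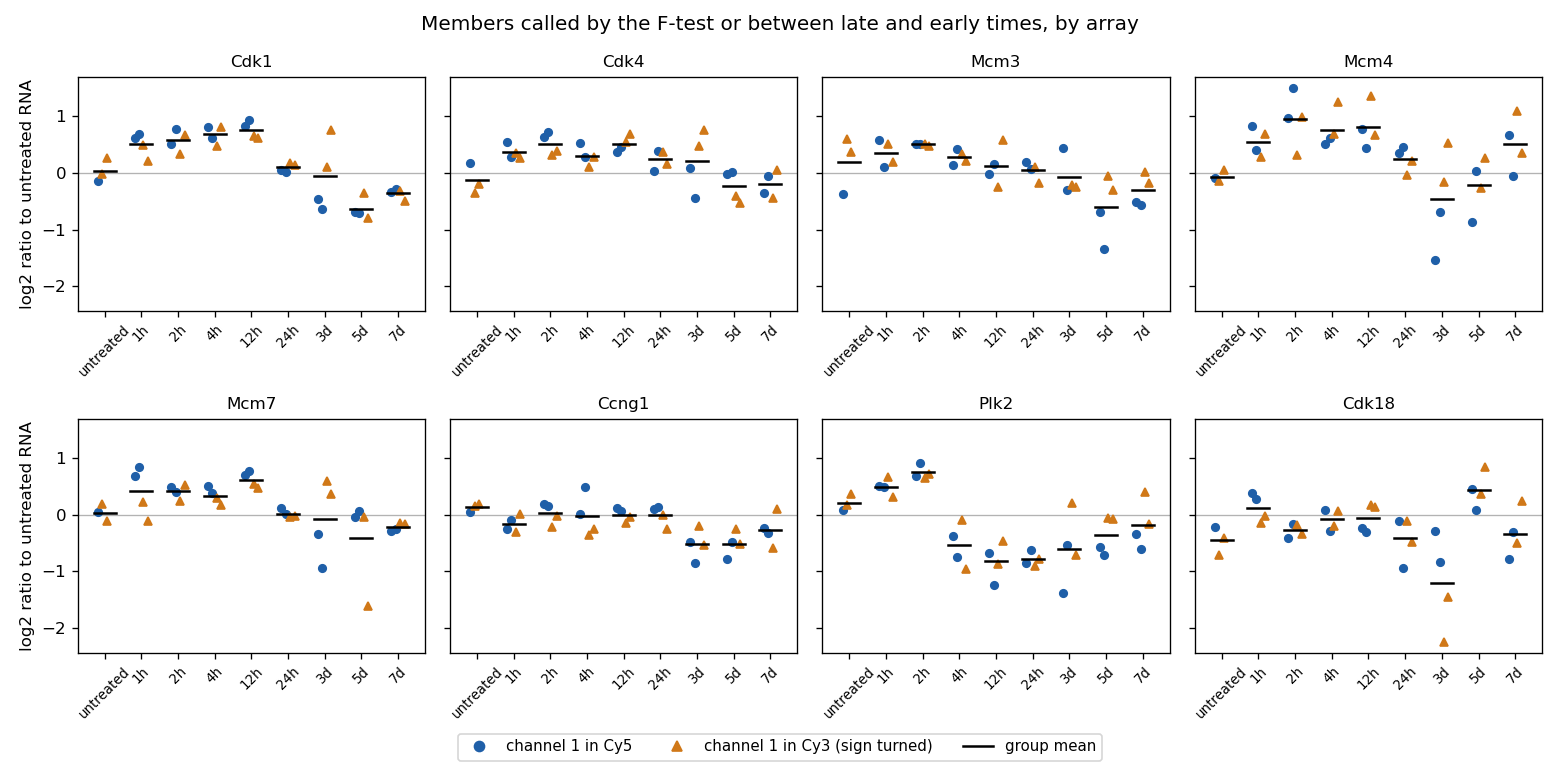
Log2 ratio to untreated RNA of 8 members on every array, by group. Circles mark arrays that carry the group's RNA in Cy5, triangles those in Cy3, and black lines the group means. Cdk1 is above 0 on all 16 arrays of 1 to 12 h and below 0 on all 8 arrays of 5 and 7 days, and Plk2 changes sign between 2 and 4 h.

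Of the F-tests over the 8 times, each set against untreated, 6 of 95 members passed (6.32%), against 5.04% of all genes. Beside Plk2 these were Cdk1 (F 11.88, limma adjusted p 4.04e-05), Cdk18 (F 5.11, 0.0168), Mcm4 (F 4.82, 0.0233), Mcm3 (F 4.43, 0.0358) and Cdk4 (F 4.31, 0.0405). Cdk18, a kinase of the PCTAIRE group, moved at single late times. Its log2 ratios were -0.30, -0.84, -2.25 and -1.46 at 3 days and 0.45, 0.08, 0.37 and 0.83 at 5 days, against -0.21, -0.72 and -0.42 on the untreated arrays. Its lowest values are the 2 Cy3 arrays of 3 days. With each of the 35 arrays left out in turn, Cdk1, Plk2 and Mcm4 kept this call every time, Cdk18 34 times, Mcm3 20 times and Cdk4 11 times. Cdk18 lost it without 3 day replicate 4 (limma adjusted p 0.053), while Mcm3 and Cdk4 reached limma adjusted p values of 0.0886 and 0.0851 without 5 day replicates 2 and 3.

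Of the 18 tested genes of the centromere, checkpoint and mitotic kinase family only Plk2 passed at late against early times, 5.56% against 6.71% of all genes. By value 13 of the 18 lay below 0 and 5 above, with a median of -0.253. Aurka, which builds the spindle poles, differed by -0.54 (SE 0.22, limma adjusted p 0.193), and Cenpa, the histone H3 variant of centromeres, by -0.50 (SE 0.17, 0.0983). Cdc20, the activator of the anaphase-promoting complex, differed by -0.57 (SE 0.32, 0.411), with 11 late arrays. Among the kinesins, Kif2c and Kif4, which act on mitotic chromosomes and microtubules, differed by -0.31 (SE 0.24) and -0.24 (SE 0.23), and Kif20a by 0.03 (SE 0.14). Kif23, a motor of the cytokinetic midzone, had values on 2 arrays of 3 days and was not tested there. With 5 and 7 days as the late times, the set chosen later, 6.33% of all genes were called. Kif23 was among them at -1.09 (SE 0.32, limma adjusted p 0.0407). Its log2 ratios were -0.42, -2.59, -0.75 and -0.84 at 5 days and -0.67, -0.64, -0.46 and 0.72 at 7 days, against a lowest of -0.30, a median of 0.37 and a highest of 1.01 at early times. The groups overlap through 1 array of 7 days.

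Aurkb, the chromosomal passenger kinase, could be read up to 3 days. Its log2 ratios were 0.65, 0.59, 0.58 and 0.49 at 1 h, 0.57, 0.87, 0.95 and 0.87 at 2 h, and 0.38, 0.91, 0.56 and 0.32 at 4 h, against 0.47, -0.21 and 0.19 on the untreated arrays. All 12 early arrays were above 0, and 1 untreated array lies within their range. At 3 days the Cy5 arrays gave 0.16 and 0.29 and the Cy3 arrays -0.87 and -0.69.

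The CDK inhibitors, which hold the cycle back, did not pass in any comparison between groups. Their differences between late and early times ran from -0.49 to 0.28. Cdkn2c (p18) differed by 0.28 (SE 0.14, limma adjusted p 0.311), Cdkn1b (p27) by -0.02 (SE 0.14) and Cdkn1c (p57) by -0.49 (SE 0.28, 0.412). Cdkn1a (p21) had 2 of its 4 values missing at 3 days and was not tested there. Of the Cdc genes, Cdc16, a subunit of the anaphase-promoting complex, had the highest difference, 0.32 (SE 0.12, limma adjusted p 0.139), and Cdc25a, a phosphatase that activates CDKs, differed by -0.20 (SE 0.10, 0.272). Cdc6 and Cdc45, which load and start the helicase, differed by -0.10 (SE 0.21) and -0.06 (SE 0.28).

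Each of the 8 times was also set against the 3 untreated arrays, with up to 110 members tested. No member passed limma's adjusted p of 0.05 at 1, 2, 4, 12 or 24 h or at 3 or 5 days, where 0.25%, 0.549%, 0.268%, 0.0218%, 0.0219%, 0.5% and 1.61% of all genes did. At an unadjusted p below 0.05 the members numbered 7, 8, 8, 8, 3, 14 and 11 at those times, against 5.12%, 6.01%, 4.28%, 4.35%, 4.48%, 12.2% and 10.9% of all genes. Pooled early, middle (12 and 24 h) and late times gave none of 108, 104 and 98 members, against 0.547%, 0.0222% and 1.37% of all genes, with 13, 10 and 12 members at an unadjusted p below 0.05, against 6.73%, 4.86% and 9.67% of all genes. Cdk2ap1, a CDK2-associated protein, had the lowest p at 1, 2 and 4 h. At 2 h its log2 ratios were 0.53, 0.62, 0.80 and 0.61, against 0.06, -1.24 and -2.16 on the untreated arrays, and the difference of 1.79 (SE 0.49) had a limma adjusted p of 0.128. The groups do not overlap, and the untreated arrays hold most of the spread. That spread follows the dye, with 0.06 on the Cy5 array and -1.24 and -2.16 on the Cy3 arrays.

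At 7 days 2 of 104 members were higher (1.92%), against 1.12% of all genes called and 0.674% called higher. Kif21a, a kinesin that limits microtubule growth in neurons, had log2 ratios of 0.65, 1.10, 0.38 and 0.85 at 7 days, against 0.41, -0.84 and -0.72 on the untreated arrays. These overlap through untreated replicate 1, the only Cy5 array among the untreated ones, while -0.84 and -0.72 come from the Cy3 arrays. The difference was 1.13 (SE 0.27, limma adjusted p 0.0283), but the call held in 3 of the 7 fits that left out 1 array of either group. Without untreated replicate 3 it was 0.90 with a limma adjusted p of 0.25. Cdk13, a kinase of RNA polymerase II, had -0.38, 0.34, 1.75 and 1.31 at 7 days, against -0.57, -0.12 and -2.62 on the untreated arrays. Its difference of 1.90 (SE 0.45, limma adjusted p 0.0283) rests on 1 of its 3 probes. That probe averaged 1.84 at 7 days and -3.44 on the untreated arrays, while another averaged 0.22 at 7 days and 0.30 on the untreated arrays. The call held in 4 of the 7 such fits, and without untreated replicate 4 the difference was 1.10 with a limma adjusted p of 0.384.

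Since the second channel held untreated RNA on every array, the ratios can also be tested against 0. This leaves out the mean of the untreated arrays and its error, while those arrays still enter the estimate of the spread. By limma, 5 of 112 members then passed at 2 h, against 2.61% of all genes. They were Aurkb at 0.81 (SE 0.16, adjusted p 0.00291), Mcm4 at 0.95 (0.22, 0.013), Plk2 at 0.75 (0.17, 0.00692), Cdk1 at 0.58 (0.14, 0.0168) and Cdk4 at 0.51 (0.14, 0.0394), each with the SE and adjusted p in that order. Over the pooled early times 5 of 108 members were higher, near the 4.28% of all genes called, with Mcm3 at 0.38 (SE 0.09) in place of Plk2. At 5 days Cdk1 at -0.64 (SE 0.14), Mcm3 at -0.60 (SE 0.16) and Ccng1 at -0.51 (SE 0.12) were lower, 3 of 106 against 4.94% of all genes called. At the pooled late times 6 of 98 members were lower and 2 higher, Cdkn2c at 0.36 (SE 0.10) and Kif21a at 0.39 (SE 0.10), against 9.79% of all genes called.

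The medians over the member lists lay within -0.31 and 0.22 on every array. The median log2 ratio of the proliferation members on single arrays was 0.03 to 0.16 at 1 h and -0.01 to 0.14 at 2 h. At 4 h it was 0.10 to 0.18 and at 12 h 0.09 to 0.15, then 0.01 to 0.06 at 24 h. It was -0.31 to 0.22 at 3 days, -0.19 to -0.13 at 5 days and -0.26 to -0.02 at 7 days, against -0.09 to 0.05 on the untreated arrays. All 8 arrays of 5 and 7 days lay below all 12 arrays of 4, 12 and 24 h. Toward 2 h the gap nearly closes, with -0.007 on replicate 2 of 2 h and -0.017 on replicate 4 of 7 days. These sets of times were not planned, and other gene lists were not counted in the same way. The other members stayed between -0.11 and 0.12 at each of the 8 times. The fibroblast markers gave medians of 0.03 to 0.37 at 3 days, 0.17 to 0.28 at 5 days and 0.22 to 0.87 at 7 days, against -0.62 to -0.42 at 1 h. They moved over the same times as the cell cycle genes, and their part in the result was not tested.

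**Figure D3:**
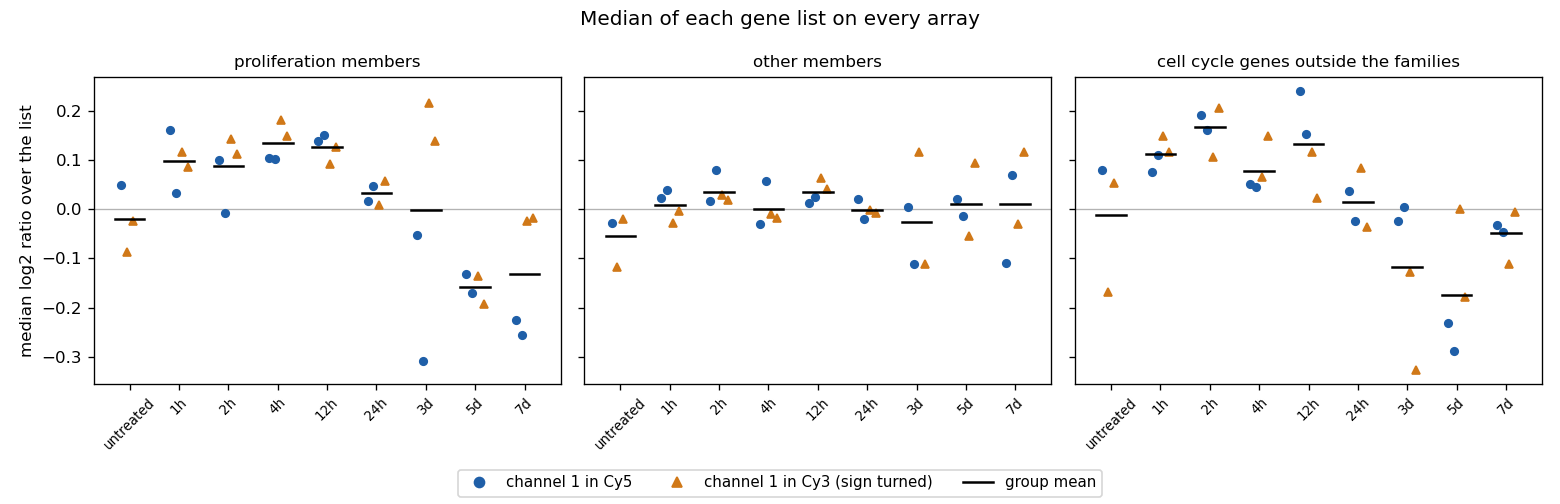
Median log2 ratio over the proliferation members, the other members and 58 cell cycle genes outside the families, on every array by group, with dyes and group means marked as in the legend. The proliferation members sit at -0.19 to -0.13 at 5 days and at 0.10 to 0.18 at 4 h, while at 3 days they run from -0.31 to 0.22.

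Cell cycle genes outside the symbol families were read for comparison, from a list of 58 with textbook roles. Of 46 tested, 9 were lower at late than at early times and none was higher (19.6%, median -0.239), against 6.71% of all genes called. They were Top2a, the topoisomerase of mitotic chromosomes, at -1.21 (SE 0.25), Cks1b, a CDK-binding protein, at -1.07 (SE 0.16), and Tfdp1, the DNA-binding partner of E2F, at -0.91 (SE 0.14). Racgap1 and Anln, which act in cytokinesis, stood at -0.80 (SE 0.19) and -0.71 (SE 0.11), and Ncapg and Smc4, subunits of condensin, at -0.76 (SE 0.13) and -0.70 (SE 0.13). Gins1, a part of the replicative helicase, was at -0.61 (SE 0.08) and Cks2, a second CDK-binding protein, at -0.53 (SE 0.13). The limma adjusted p values of the 9 ran from 6.19e-06 to 0.00613. The share of these genes was not tested against that of the members.

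In the promoters, the motif letters were spread unevenly over the members. Promoters were listed for 98 members, 45 of them proliferation members. Of those 45, 46.7% held CHR letters, 22.2% E2F letters and 66.7% CCAAT, against 17%, 0.0% and 41.5% of 53 other members and 16.3%, 4.1% and 42.8% of 8005 genes on the platform. E boxes were found in 6.7% of the proliferation members, 9.4% of the other members and 11.3% of the platform genes. Over all 27025 genes with a RefSeq promoter the shares were 21.7% for CHR, 2.6% for E2F, 41.1% for CCAAT and 8.1% for the E box. These are counts of letters with no test, and a match does not show that a factor binds. Of the 7 members lower at late times 6 had a listed promoter, and Mcm4 had none. E2F letters were in the promoters of Cdk1 and Mcm3 and at 1 of the 2 starts of Mcm7, and the Plk2 window (chr13:110394794-110395093, plus strand) matched none of the motifs.

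**Figure D4:**
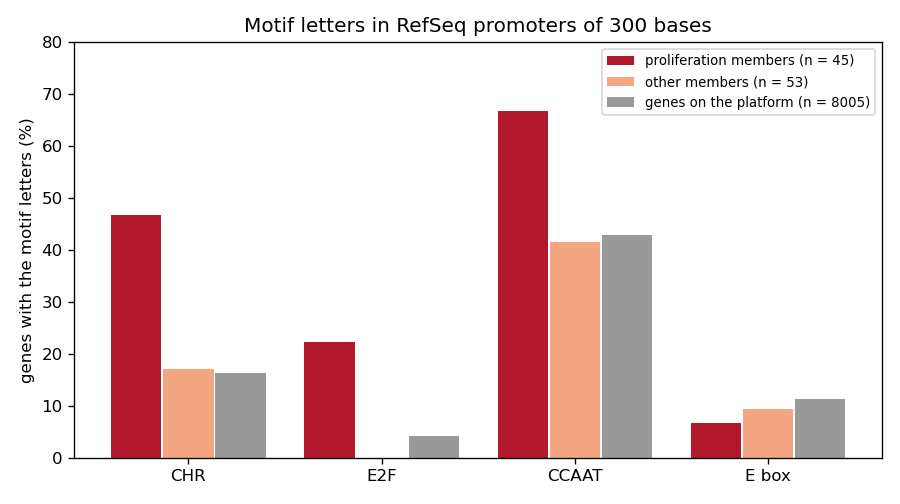
Percent of genes whose RefSeq promoter of 300 bases holds the letters of each motif on either strand, for proliferation members, other members and all platform genes with a promoter. E2F letters are in 22.2% of the proliferation members, 0.0% of the other members and 4.1% of the platform genes.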

How the data were processed

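RNA of Erbb2-transfected NIH3T3 cells was measured on 36 dual-colour arrays of 20355 probe rows. The deposited values are log2 ratios per probe, a scale read from the values since the file headers do not state it. Software, background correction, normalization and the ratio's numerator are not given in the sources used here. Probes were named from the platform annotation: 14030 had 1 symbol, 5 several and 6320 none. All 113 members matched RefSeq by Entrez ID.

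Values above 12 (2807) were dropped, each array was centred on its median, and Cy3 arrays were multiplied by -1. Rows of the 5 and 7 day arrays were moved back by the pattern of missing values, with 383 rows left out. Probes were averaged per gene. A gene needed a value on at least 3 arrays of each group compared. limma 3.58.1 in R 4.3.3 fitted group means and 1 dye term per gene to 35 arrays, then eBayes. P-values were adjusted by Benjamini-Hochberg over all genes tested, at 0.05, and the fits were tested on simulated data. At 7 days against untreated, a true log2 change of 1 was called in 25.8% of changed genes and one of 0.5 in 1%. For late against early times these shares were 71.9% and 24.5%. The simulation gave changed genes an equal shift on every late array in both dyes. It used independent normal noise and 8236 genes with few missing values. Where late times or dyes disagree in the data, these shares may not apply. A member that did not pass may thus still have changed. The number of arrays limits the precision. The labels do not say that replicates were separate cultures, so p-values may measure technical spread. Each member may be named, with full statistics for those called. The members and lists were chosen with earlier results of these data known. Replicate numbers did not pair the arrays: deviations of same-numbered arrays correlated at -0.172 to 0.146.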

Additional observations from a re-analysis of the deposited data

Results flagged for a closer look

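Among 80 groups of 4 arrays of the 10 members called in any comparison, 5 held 1 array far from the other 3 by Dixon's test, where chance flags about 1 in 20. Mcm7 stood at -1.61 on 5 day replicate 4, against -0.05 to 0.06 on the other arrays of that time. Cdk13 stood at -1.42 on the same array, against -0.13 to 0.00, and at 0.83 on 2 h replicate 4, against 0.07 to 0.19. Mcm3 stood at 0.44 on 3 day replicate 1, against -0.30 to -0.21. Mcm3 was also marked at 0.47 on 2 h replicate 4, although the others lay at 0.51 to 0.52, since that group's whole range is small.

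The effects of late and early tetracycline differed by limma's test of the difference itself for 7 members. The log2 differences, late minus early, were -0.94 for Cdk1, -0.80 for Mcm4, -0.70 for Mcm3, -0.62 for Mcm7, -0.61 for Plk2, -0.47 for Cdk4 and -0.38 for Ccng1.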

How the results depend on the processing

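The comparison of late with early times called 7 members, and leaving out each of its 24 arrays in turn gave 7 to 10, with the calls of all 7 members kept each time. It gave 3 without turning the Cy3 arrays (2 higher and 1 lower, none shared, with 2.38% of all genes called), 4 without centring (3.89%), 3 with the 5 and 7 day rows as deposited (4.05%), and 13 on the Cy5 arrays alone (12 lower and 1 higher, 6.69%), the last chosen after seeing the data. On the Cy3 arrays alone, also chosen later, it gave 6 (7.7% of all genes), of which 3 were lower and 3 higher, and Cdk1 was the 1 member shared with the 7. Over the alternatives other than leaving out an array, the calls were kept in 14 of 15 for Cdk1, 12 of 15 for Mcm3, Mcm4 and Plk2, 11 of 14 for Cdk4, 10 of 15 for Mcm7 and 7 of 15 for Ccng1, and the direction of the 7 in every one. The F-test called 6 members, 4 to 9 with 1 array left out, 12 with a dye effect for each group (8.19% of all genes), 14 with array weights (9.37%), 2 without centring (2.36%) and 2 with rows as deposited (3.29%).

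Against the untreated arrays the counts depended on 1 array, untreated replicate 1. It is the only Cy5 array of that group, so the group holds only Cy3 arrays without it. Leaving out untreated replicate 1 and its copy gave 4 members at 1 h, 3 at 2, 4 and 12 h, 2 at 24 h, 3 at 3 days, 5 at 5 and 7 days, 6 at early, 3 at middle and 6 at late times. The calls rose for all genes as well, to 1.4% to 2.24% at 1 to 24 h, 3.68% to 4.42% at 3 to 7 days, and 3.35%, 2.16% and 4.92% at the pooled times. Any other array left out gave 0 to 2, so the lowest is 0 at each time. Array weights gave 6, 14, 8, 9, 4 and 6 members at 1, 2, 4, 12 and 24 h and 5 days, and 13, 8 and 4 at early, middle and late times, where 4.62%, 8.52%, 4.23%, 2.94%, 3.15% and 3.89%, and 7.39%, 4.17% and 4.6% of all genes were called. Weights ran from 0.129 to 0.611 on the arrays of 3 to 7 days and from 0.914 to 3.832 on those of 1 to 24 h. Testing against 0 gave 5, 1, 2, 1, 5, 3 and 1 at 2, 4, 12 and 24 h and 3, 5 and 7 days, and 5, 2 and 8 at the pooled times, where 2.61%, 0.962%, 0.368%, 0.347%, 5.23%, 4.94% and 5.47%, and 4.28%, 0.744% and 9.79% of all genes were called. Without turning, the counts were 1 at 1, 2, 4 and 12 h, 18 at 3 days, 4 at 5 and 7 days, and 2, 2 and 7 at the pooled times, with 0.753% to 1.45% of all genes called at 1 to 12 h, 12.8%, 2.08% and 3.73% at 3, 5 and 7 days and 2.95%, 2.45% and 5.78% at the pooled times. A dye effect for each group gave 1 at 4 h, 2 at 5 days, 1 at 7 days and 1 at early times, and quantile normalization 2 at 2 and 4 h, 1 at 7 days and 1 each at early and middle times, with 0.546% to 2.56% and 0.206% to 1.69% of all genes called there. Fitting only the groups compared gave 2 at early times (1.19% of all genes) and 0 at 7 days. The 2 members of 7 days fell to 0 without centring (0.4% of all genes) and with rows as deposited (0.875%), and to 1 with values at the ceiling kept (1.14%).

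Cdk13 at 7 days turned to -1.50 without turning the Cy3 arrays and to -0.95 with values at the ceiling kept, and Kif21a to -0.58 without turning and -0.24 with rows as deposited. The replicate number as a block left 1 of the 2 members of 7 days (Cdk13) and changed no other count of members by over 1.5 times. The numbers do not pair the arrays. The cause of these changes was not tested.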
